A study of Mus musculus with 9 samples.

Results

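Immune checkpoint receptors and their ligands were followed in mammary tumors as a set of 10 named genes, which is 10 of the 35275 genes in the table of counts. The receptors were Pdcd1 (PD-1), Ctla4, Lag3, Havcr2 (TIM-3) and Tigit. The ligands and related surface proteins were Cd274 (PD-L1), Pdcd1lg2 (PD-L2), Cd80, Cd86 and Vsir (VISTA). They were chosen by name and not by a rule on their counts, but with earlier results of these data known. Each matched 1 Ensembl identifier, and all 9 tumors were used for every gene, low counts included.

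RNA was sequenced from 9 mammary gland tumors of Brca1Co/Co;MMTV-Cre;p53+/- mice. In these mice Cre recombinase is driven by the MMTV promoter, which is active mainly in mammary epithelium, the conditional Brca1 alleles are its target, and 1 copy of p53 is missing in the whole animal. All 3 groups, saline included, carried this genotype. Treatment began at a tumor diameter of 4-5 mm. The saline tumors were A3673, A3685 and A3688. The i.v. TLZ tumors were B3638, B3684 and B3700, from mice given free Talazoparib, an inhibitor of the DNA repair enzyme PARP, into a vein. The NanoTLZ tumors were C3519, C3669 and C3698, from mice given Talazoparib packed in nanoparticles. There were 5 doses, 3 a week, and both forms of the drug were dosed at 0.33 mg/kg. A group given empty nanoparticles was not analysed here, so the particle and the drug in it cannot be told apart in the NanoTLZ group. The labels do not give the age of the mice or a batch. The tumors arose in the animals, and bulk tissue was sequenced, so each level is a sum over tumor cells, immune cells and stroma. A lower level can then come from fewer cells of a type or from less RNA per cell, and these cannot be told apart.

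Checkpoint receptors sit on T cells and NK cells and dampen them once their ligands are bound. PD-1 is engaged by PD-L1 and PD-L2, CTLA-4 competes with the activating receptor CD28 for CD80 and CD86, and TIGIT competes with CD226 for PVR. LAG-3 binds MHC class II, TIM-3 has galectin-9 among its ligands and is also made by macrophages and dendritic cells, and VISTA is made mostly by myeloid cells. PD-L1 is induced by interferon gamma in tumor cells and in myeloid cells, while PD-L2, CD80 and CD86 are mainly products of dendritic cells, macrophages and B cells.

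The libraries held between 17538380 and 21194980 counted reads, with a median of 19747343. The tissue label was checked with 7 epithelial markers, all of them tested, whose summed level was 3586 to 8375 CPM, counts scaled to a common library size (here after TMM scaling), over the 9 tumors. Among the saline tumors A3688 stood apart with 40302 counts of Krt5, a basal keratin, against 42 to 1347 in the other tumors. Skeletal muscle genes summed to 25.7 to 685 CPM in the saline tumors, 1.89 to 4.07 CPM in the i.v. TLZ tumors and 2.12 to 4.00 CPM in the NanoTLZ tumors. The part of the muscle and of A3688 in the differences between groups was not tested, and values without A3688 are given beside several results that it moved.

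In GRCm38 the ligand genes Cd274 (chr19:29367455-29388095) and Pdcd1lg2 (chr19:29410919-29471161) lie in a row on the plus strand, with 22823 bases between them. Jak2, a kinase of interferon gamma signalling, ends 54374 bases before Cd274. Tigit (chr16:43648867-43664146) is on the minus strand, and so is Cd86 (chr16:36603869-36666081), while Cd80 (chr16:38455561-38496335) is on the plus strand. Pdcd1 (chr1:94038305-94052553, minus strand) and Ctla4 (chr1:60887000-60915832, plus strand) share chromosome 1. Lag3 (chr6:124904361-124911705, minus strand), Havcr2 (chr11:46454935-46481255, plus strand) and Vsir (chr10:60346851-60372684, plus strand) each lie on a chromosome with no other gene of the set. All 10 are protein coding. The annotated span of Pdcd1lg2 overlaps that of the antisense gene A930007I19Rik, that of Vsir overlaps Cdh23 on the other strand, and that of Ctla4 overlaps the pseudogene Rpl18-ps1 on its own strand. The strand setting of the counting is not given in the sources used here, so reads on shared bases, if there are any, may not be told apart. A930007I19Rik had 26 to 77 counts per tumor, more than Pdcd1lg2 in every tumor, and Rpl18-ps1 had 3 to 16 counts.

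The RefSeq promoter windows of GRCm38.p6 were found for 8 of the 10 genes. The 250 bases before the transcription start are shown for Cd274 and Tigit, the pair of genes in which every NanoTLZ tumor lay above every saline tumor, and for Havcr2, in whose window the only motif match was found. The Cd274 window is chr19:29367188-29367437 (plus strand), that of Tigit chr16:43664185-43664434 (minus strand) and that of Havcr2 chr11:46454681-46454930 (plus strand). Each runs 5′ to 3′ towards the start, and capitals mark the motif.
Cd274: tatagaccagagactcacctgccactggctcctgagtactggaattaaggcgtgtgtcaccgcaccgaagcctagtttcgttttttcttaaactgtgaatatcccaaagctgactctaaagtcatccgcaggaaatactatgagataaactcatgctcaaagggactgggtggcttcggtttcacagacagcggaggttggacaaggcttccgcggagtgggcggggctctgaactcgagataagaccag
Tigit: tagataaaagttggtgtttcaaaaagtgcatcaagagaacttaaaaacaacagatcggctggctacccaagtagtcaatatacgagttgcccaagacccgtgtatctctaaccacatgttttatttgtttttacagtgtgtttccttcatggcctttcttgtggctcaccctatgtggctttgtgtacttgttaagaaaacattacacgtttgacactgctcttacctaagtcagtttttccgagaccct
Havcr2: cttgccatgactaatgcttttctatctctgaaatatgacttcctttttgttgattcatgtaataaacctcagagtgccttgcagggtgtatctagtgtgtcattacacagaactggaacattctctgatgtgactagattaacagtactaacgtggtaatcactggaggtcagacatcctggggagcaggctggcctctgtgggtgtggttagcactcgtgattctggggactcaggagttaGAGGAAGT
Both strands were searched for GAAA, any 2 bases and GAAA, the core of the interferon response element. The search also covered TTC, any 3 bases and GAA, the gamma-activated site. The last motif was GAGGAAGT, the letters preferred by the myeloid factor PU.1. The motifs can overlap each other. In this order they were present in 2.98%, 7.02% and 2.44% of 32851 promoter windows of the same length. Of the 8 checkpoint windows, only that of Havcr2 held a match, GAGGAAGT on the plus strand from 8 to 1 bases before the start. The absence of a match says only that these letters are not in the window.

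Levels between genes were compared as CPM per kilobase of exon, as the mean and SD over the 9 tumors. Vsir was the highest at 16.8 ± 7.63 and lay above the next gene, Havcr2 at 4.74 ± 2.37, in 9 of 9 tumors. Below it came Cd274 at 4.40 ± 2.67, Lag3 at 3.43 ± 1.79, Cd86 at 2.73 ± 1.29, Tigit at 1.79 ± 1.36 and Pdcd1 at 1.61 ± 1.34. Cd80 at 0.384 ± 0.219, Pdcd1lg2 at 0.211 ± 0.178 and Ctla4 at 0.112 ± 0.101 were the lowest. Except for Vsir and Havcr2, the log2 ratio of neighbours in this order averaged less than 1 SD of that ratio over the tumors, so the order of the other 9 genes among neighbours was not settled. The receptor PD-1 was thus at a level per length below that of its ligand PD-L1, by a ratio of Cd274 to Pdcd1 that ran from 1.27 in A3685 to 7.76 in A3673. PD-L1 was above PD-L2 in every tumor, and where Pdcd1lg2 had a count the ratio per length was 9.56 to 83.6.

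**Figure D1:**
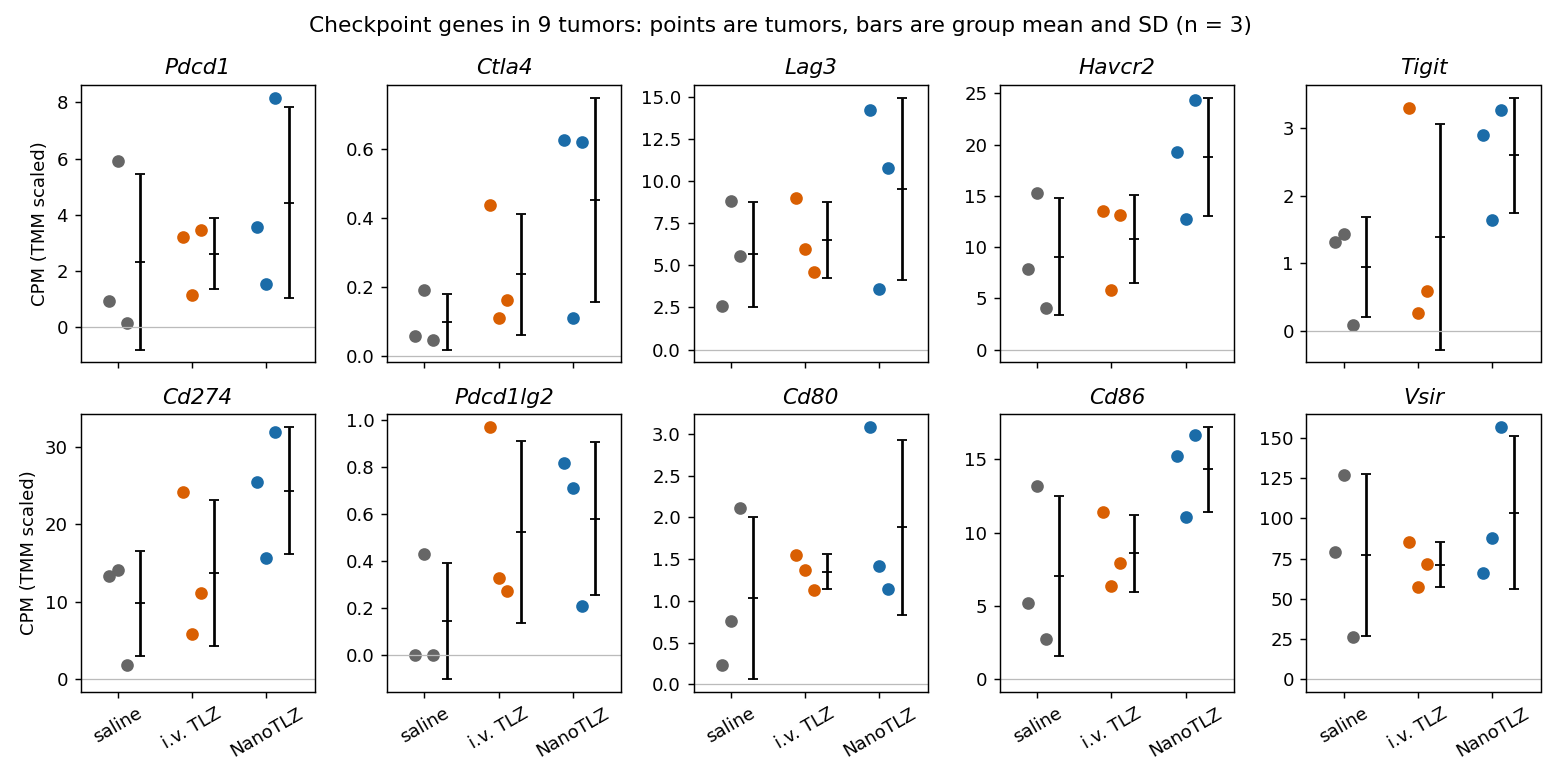
Level of each of the 10 checkpoint genes in every tumor, as CPM after TMM scaling (vertical axis, its own linear scale in each panel), for the 3 saline, 3 i.v. TLZ and 3 NanoTLZ tumors. Points are tumors and bars the group mean and SD. For Tigit and Cd274 all NanoTLZ points lie above all saline points, with 1.64 to 3.26 against 0.0918 to 1.43 CPM for Tigit and 15.7 to 32.0 against 1.88 to 14.1 CPM for Cd274.

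Among the receptors, Pdcd1, the gene of PD-1, had 16, 124 and 3 counts in the saline tumors A3673, A3685 and A3688. In the i.v. TLZ tumors B3638, B3684 and B3700 it had 66, 21 and 64 counts, and in the NanoTLZ tumors C3519, C3669 and C3698 it had 74, 28 and 158. The saline group thus held both the lowest tumor and the second highest, and all groups overlapped. In CPM the means were 2.32 ± 3.13 for saline, 2.60 ± 1.27 for i.v. TLZ and 4.42 ± 3.41 for NanoTLZ (SD, n = 3 each). Tigit, whose product competes with CD226, had 23, 30 and 2 counts after saline in the same order of tumors, 68, 5 and 11 after i.v. TLZ and 60, 30 and 63 after NanoTLZ. In CPM every NanoTLZ tumor was above every saline tumor, while the i.v. TLZ group held the highest tumor of all, B3638, and low values in the other tumors. The means were 0.946 ± 0.742, 1.39 ± 1.66 and 2.60 ± 0.850 CPM.

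Havcr2, the gene of TIM-3, had 137, 321 and 89 counts in the saline tumors, 278, 106 and 242 in the i.v. TLZ tumors and 401, 234 and 470 in the NanoTLZ tumors. The saline tumor A3685, at 15.3 CPM, was above the NanoTLZ tumor C3669 at 12.8 CPM, which made the groups overlap. The group means were 9.07 ± 5.71, 10.8 ± 4.33 and 18.8 ± 5.79 CPM. Lag3, the receptor of MHC class II, had 45, 185 and 121 counts after saline, 186, 109 and 85 after i.v. TLZ and 296, 66 and 208 after NanoTLZ. Its lowest NanoTLZ tumor, C3669 at 3.60 CPM, was below every i.v. TLZ tumor. Its means were 5.65 ± 3.12, 6.52 ± 2.26 and 9.54 ± 5.43 CPM.

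Ctla4 was at the edge of detection. It had 1, 4 and 1 counts in the saline tumors, 9, 2 and 3 in the i.v. TLZ tumors and 13, 2 and 12 in the NanoTLZ tumors, 47 counts in all. At these counts the 2 of C3669 cannot be set apart from the 4 of A3685. Ctla4 was too low for edgeR's filterByExpr function and was the only one of the 10 genes without a test. With every counted gene kept, its value was 1.21 on the log2 scale for i.v. TLZ against saline (edgeR adjusted p = 0.742) and 2.14 for NanoTLZ against saline (edgeR adjusted p = 0.652). Cd28, its activating counterpart, was as sparse, with 1 to 17 counts per tumor. The ratio of Ctla4 to Cd28 per length was 0.657 to 0.876 in the saline tumors, 1.31 to 2.15 in the i.v. TLZ tumors and 2.01 to 5.25 in the NanoTLZ tumors. Every ratio rests on at most 13 counts of Ctla4, those of the saline tumors on 1 to 4 and the highest, in C3669, on 2 over 1. A difference of the ratio between groups was thus not settled.

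Among the ligands, Cd274 had 233, 296 and 41 counts in the saline tumors, 498, 106 and 205 in the i.v. TLZ tumors and 529, 287 and 618 in the NanoTLZ tumors. In CPM the NanoTLZ tumors, at 25.5, 15.7 and 32.0, were all above the saline tumors, at 13.3, 14.1 and 1.88. The gap between the highest saline and the lowest NanoTLZ tumor was small beside the spread in either group, and the i.v. TLZ tumors, at 24.1, 5.79 and 11.1, overlapped both. The means were 9.77 ± 6.85 for saline, 13.7 ± 9.44 for i.v. TLZ and 24.4 ± 8.21 for NanoTLZ.

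Pdcd1lg2, the second PD-1 ligand, was sparse, with 0, 9 and 0 counts after saline, 20, 6 and 5 after i.v. TLZ and 17, 13 and 4 after NanoTLZ. A count of 0 allows up to 0.172 CPM in A3673 and 0.138 CPM in A3688, where 3 counts are the floor and counting error alone is covered. All 6 treated tumors had at least 4 counts, but A3685 lay among them at 0.429 CPM. The part of the overlapping A930007I19Rik in these counts was not tested.

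Cd86, a ligand of CD28 and CTLA-4, had 91, 277 and 59 counts in the saline tumors, 236, 116 and 147 in the i.v. TLZ tumors and 316, 203 and 322 in the NanoTLZ tumors. A3685 at 13.2 CPM was above C3669 at 11.1 CPM, so saline and NanoTLZ overlapped by that tumor alone. The means were 7.04 ± 5.48, 8.58 ± 2.61 and 14.3 ± 2.90 CPM. Cd80, which binds the same receptors, had 4, 16 and 46 counts after saline, 32, 25 and 21 after i.v. TLZ and 64, 26 and 22 after NanoTLZ. Its order of tumors was another one: A3688, the lowest of the 9 tumors for 7 of the genes, was the second highest for Cd80, at 2.11 CPM. Vsir had 1387, 2662 and 571 counts after saline, 1756, 1045 and 1321 after i.v. TLZ and 1369, 1612 and 3030 after NanoTLZ. Its means were 77.5 ± 50.4, 71.2 ± 14.0 and 104 ± 47.4 CPM, and all groups overlapped.

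The question of the first comparison was whether free drug changed gene expression in the tumors. Between i.v. TLZ and saline, edgeR's quasi-likelihood F-test called 0 of the 9 tested checkpoint genes at an adjusted p under 0.05, and 0 had an unadjusted p under 0.05. Over all 15821 tested genes the share called was 0%, and the share with an unadjusted p under 0.05 was 10.4%. DESeq2 gave the same counts of 0, and limma-voom 0 called and 1 with an unadjusted p under 0.05, Pdcd1lg2. The fitted log2 fold change was above 0 for 8 of the 9 genes, against 47.6% of all tested genes, and its median was 0.29 against -0.03. Groups overlapped for all 9, while 5.99% of all tested genes were higher without overlap. The genes share tumors and vary together, so this count is not 9 separate observations. The values ran from -0.12 for Vsir (95% interval -1.27 to 1.03) to 1.80 for Pdcd1lg2 (interval -0.89 to 4.50). For Cd274 the value was 0.49 with an interval from -1.10 to 2.07, for Havcr2 0.25 from -0.93 to 1.43 and for Cd86 0.29 from -0.94 to 1.51. Single tumors set the sign: without B3638 Tigit went from 0.56 to -1.11 and Cd274 to -0.21, without A3688 Pdcd1 went from 0.16 to -0.39, Havcr2 to -0.10 and Cd86 to -0.10, and without A3685 Vsir went to 0.43. Without A3673 Lag3 went from 0.21 to -0.13 and Cd80 from 0.38 to -0.07. Leaving out A3688 instead moved Cd80 to 1.43 and Vsir to -0.53. Without A3685, 2 genes had an unadjusted p under 0.05, Pdcd1lg2 and Cd86.

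The second comparison asked the same of the nanoparticle form. Between NanoTLZ and saline, 0 of the 9 genes were called by edgeR, where the share over all tested genes was 0.00632%. None of them had an unadjusted p under 0.05, where 8.99% of all tested genes did. DESeq2 again gave 0 on both counts. With limma-voom 0 were called and 4 had an unadjusted p under 0.05, namely Havcr2, Cd274, Pdcd1lg2 and Cd86. All 9 tested genes had a fitted value above 0, against 43.9% of all tested genes, with a median log2 fold change of 1.02 against -0.09. Groups did not overlap for 2 of the 9, Tigit and Cd274, both higher after NanoTLZ, while 7.82% of all tested genes were higher without overlap.

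Among the genes with a value above 1, Havcr2, Cd86 and Cd274 had the narrowest intervals. For Havcr2 the log2 fold change was 1.05 with SE 0.53 and a 95% interval from -0.14 to 2.24 (edgeR adjusted p = 0.573). For Cd86 it was 1.02 with SE 0.55 and an interval from -0.21 to 2.25 (edgeR adjusted p = 0.588), and for Cd274 1.32 with SE 0.72 and an interval from -0.29 to 2.93 (edgeR adjusted p = 0.589). The receptors Tigit at 1.46 (interval -0.82 to 3.73), Pdcd1 at 0.93 (-1.46 to 3.32) and Lag3 at 0.75 (-0.59 to 2.10) followed. Pdcd1lg2 had 1.94 (-0.75 to 4.64), Cd80 0.85 (-0.80 to 2.51) and Vsir 0.42 (-0.73 to 1.57). An 8-fold difference, 3 on the log2 scale, lay outside 6 of these 9 intervals, and a 2-fold difference lay inside all of them. The saline tumor A3685 decided several of these values. Without it, 5 genes had an unadjusted p under 0.05, 4 of them Pdcd1, Havcr2, Pdcd1lg2 and Cd86, and 1 of them Ctla4, which passed the filter in that fit. The values of Havcr2 and Cd86 were then 1.66 and 1.85, and that of Pdcd1 3.07, while 0 were called. Ctla4 also passed the filter in other fits with 1 tumor left out. Its unadjusted edgeR p was 0.0454 without B3638, 0.0480 without B3684 and 0.0198 without C3669. Without A3685 the remaining saline tumors have 0 counts of Pdcd1lg2, so its fitted value is no measure of size. Without A3688 the values of Cd274, Tigit, Havcr2 and Cd86 were 0.86, 0.94, 0.72 and 0.66, those of Pdcd1 and Vsir were 0.39 and 0.03, and that of Cd80 was 1.92. Over all alternatives, run with edgeR, DESeq2 or limma-voom, the adjusted p of Cd80 in this comparison ran from 0.676 to 0.955. Its smallest unadjusted p, from edgeR with 1 tumor left out, was 0.0275. Cd80 was 0.30 without C3519 and 0.42 without A3673, and Lag3 was 0.35 without C3519, 0.44 without A3673 and 1.23 without A3685. Without C3698 Pdcd1 was 0.16 and Vsir 0.02, and without A3685 Vsir was 0.97. No tumor left out turned the sign of any of the 9.

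**Figure D2:**
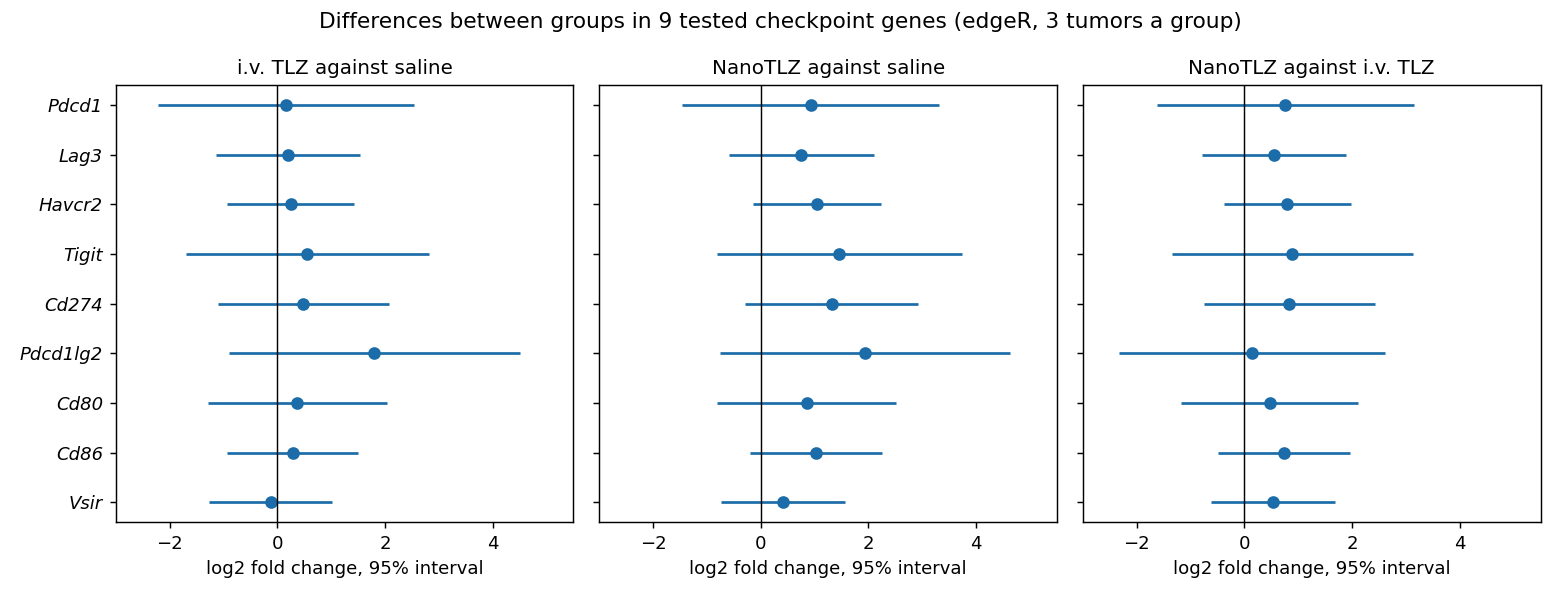
Fitted log2 fold change (horizontal axis, point) with its 95% interval (line) for the 9 tested checkpoint genes in the 3 comparisons of 2 groups, from 1 edgeR fit to 9 tumors. Every interval crosses 0, and the points of NanoTLZ against saline run from 0.42 for Vsir to 1.94 for Pdcd1lg2.

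The direct comparison of both forms of the drug left the genes undecided. Between NanoTLZ and i.v. TLZ, 0 of the 9 were called, with 0% of all tested genes called, and 0 had an unadjusted p under 0.05, with 1.68% of all tested genes under it. DESeq2 and limma-voom gave the same counts. The fitted values were above 0 for 9 of the 9 genes, against 45.6% of all tested genes, with a median of 0.74 against -0.04, and the groups overlapped for all 9, while 3.2% of all tested genes were higher without overlap. Tigit differed by 0.89 (interval -1.34 to 3.13), Cd274 by 0.83 (-0.76 to 2.42), Havcr2 by 0.80 (-0.38 to 1.98) and Cd86 by 0.74 (-0.49 to 1.96). Without B3638 the value of Tigit was 2.56, with an unadjusted edgeR p of 0.0375. Without C3519 Pdcd1lg2 went from 0.14 to -0.19 and Cd80 from 0.47 to -0.08, and without C3698 Pdcd1 went from 0.76 to -0.01. The 3 comparisons share their tumors, so a gene's values in them are not independent.

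With the mean of both treated groups set against saline, 0 of the 9 genes were called, against 0.019% of all tested genes, and 0 had an unadjusted p under 0.05, against 13.1%. DESeq2 gave the same, and limma-voom 0 called and 1 with an unadjusted p under 0.05, Pdcd1lg2. The median log2 fold change of the 9 was 0.65, against -0.06 over all tested genes, and all 9 values were above 0, against 46% of all tested genes. Treated and saline tumors overlapped for all 9, while 2.81% of all tested genes were higher without overlap. Without A3685, 5 genes, Ctla4 among them, had an unadjusted p under 0.05, and without A3688 the value of Vsir went from 0.15 to -0.25 and that of Pdcd1 from 0.55 to 0.00 within rounding. The value of Cd80 went from 0.61 to 1.67 without A3688.

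Markers of cell types that can carry these receptors and ligands were read in the same fit. The 13 T cell markers summed to 10.01 to 25.6 CPM in the saline tumors, 9.35 to 37.2 CPM in the i.v. TLZ tumors and 26.1 to 56.0 CPM in the NanoTLZ tumors. Their mean log2 CPM was 1.55 higher in NanoTLZ than in saline and 0.20 higher in i.v. TLZ. Of the 13, all had a fitted value above 0 for NanoTLZ against saline, 6 had groups that did not overlap, 2 had an unadjusted p under 0.05 and 0 were called, where over all tested genes 43.9% were above 0, 7.82% were higher without overlap and 8.99% had an unadjusted p under 0.05. The 11 macrophage markers summed to 519 to 2104, 983 to 1962 and 1926 to 2695 CPM, and their mean log2 CPM was 1.20 higher in NanoTLZ and 0.56 higher in i.v. TLZ than in saline. All 11 had a value above 0 for NanoTLZ against saline, 3 were higher without overlap, 3 had an unadjusted p under 0.05 and 0 were called. Only Cd247 was at 0 counts among the T cell markers, in A3688, and no macrophage marker was at 0 in any tumor. Of the 9 dendritic cell markers 7 were above 0 for NanoTLZ against saline, with a median log2 fold change of 1.11, and 6 for i.v. TLZ, with a median of 0.59. For i.v. TLZ 47.6% of all tested genes were above 0, with a median of -0.03. The B cell, NK cell and neutrophil lists gave medians of 2.67, 0.00 and 0.08 for NanoTLZ over 4, 4 and 5 tested genes, of which 4, 2 and 3 were above 0, the B cell genes at a summed 0.744 to 17.3 CPM, and 0 genes of these 4 lists were called. Whether more cells or more transcript per cell gave the higher levels was not tested.

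Each checkpoint gene was therefore also read against the markers of its likely carrier, as its log2 CPM minus the mean log2 CPM of the markers in the same tumor. Havcr2 and Cd86 stayed close to the macrophage markers. Their SD over the 9 tumors was 0.82 and 0.84 alone and 0.25 and 0.23 relative to the markers. The 6 leukocyte markers had a mean log2 CPM 0.93 higher in NanoTLZ and 0.24 higher in i.v. TLZ than in saline. Whether Havcr2 and Cd86 were closer to macrophage markers than to leukocyte markers was not tested. Relative to the macrophage markers, NanoTLZ differed from saline by -0.01 for Havcr2 and 0.09 for Cd86, and i.v. TLZ by -0.21 and -0.03. Without A3688 the differences of NanoTLZ from saline were -0.12 for Havcr2 and -0.091 for Cd86, so that of Cd86 changed sign. Vsir was 0.61 lower relative to the macrophage markers in NanoTLZ than in saline, at -0.18 ± 0.42 against 0.42 ± 0.59 (SD, n = 3 each), with overlapping groups, and the difference was -0.90 without A3688.

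Cd274 followed the macrophage markers less closely. Relative to them it had an SD of 0.72 and was 0.50 higher in NanoTLZ than in saline, and without A3688 the difference was -0.08. Cd80 did not follow them, since its SD was 1.04 relative to the markers and 0.92 alone. Its relative difference between NanoTLZ and saline was -0.12, and 0.92 without A3688, the tumor where it was highest relative to the markers. For Pdcd1lg2 the difference was 0.59, and 0.55 without A3688. Relative to the same markers, i.v. TLZ differed from saline by 0.13 for Cd274, 0.19 for Cd80, -0.43 for Vsir and 1.09 for Pdcd1lg2. With 0 counts in A3673 and A3688, the log2 CPM of Pdcd1lg2 there was set by the prior count of 2. None of the Pdcd1lg2 differences is therefore a measure of size. Relative to the T cell markers, NanoTLZ differed from saline by 0.14 for Pdcd1, 0.24 for Tigit, -0.21 for Ctla4, -0.36 for Havcr2 and -0.85 for Lag3. In the same order, i.v. TLZ differed from saline by 0.91, 0.16, 0.51, 0.15 and 0.11. Ctla4 had only 1 to 4 counts in the saline tumors, where the prior count of 2 weighs heavily. The sign of its relative difference was therefore not settled. Without A3688 the NanoTLZ differences of Pdcd1 and Tigit turned to -0.78 and -0.53, and those of Havcr2 and Lag3 were -0.63 and -0.58. For Lag3 the relative levels were 1.56 ± 0.46 in NanoTLZ and 2.41 ± 0.54 in saline, and they overlapped. These relative values are descriptions and carry no test.

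**Figure D3:**
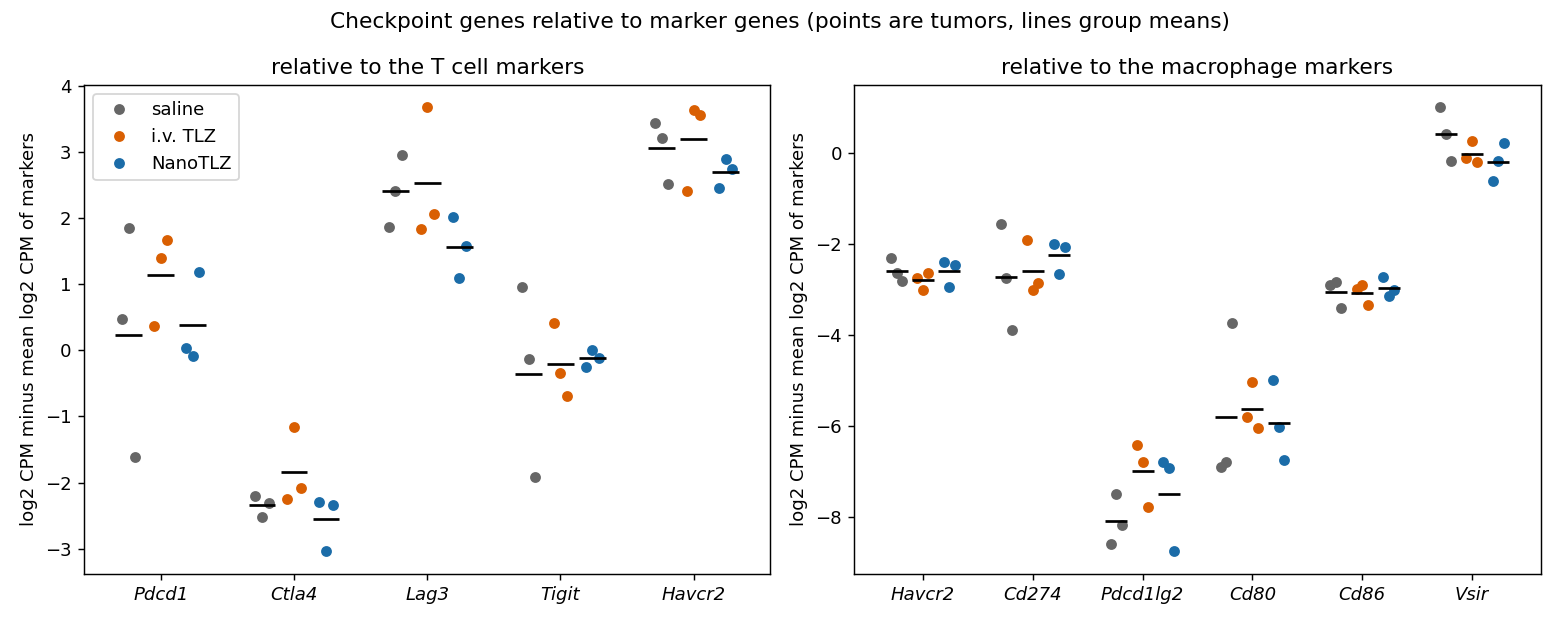
Log2 CPM of each checkpoint gene minus the mean log2 CPM of the 13 T cell markers (left, receptors) or the 11 macrophage markers (right, ligands and Havcr2), by tumor. Points are tumors, coloured by group, and lines are group means. Havcr2 and Cd86 lie within narrow bands in all groups, with an SD of 0.25 and 0.23 over 9 tumors, while Cd80 has an SD of 1.04 and is highest in the saline tumor A3688.

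Across the tumors most of the genes varied together. Over the 9 tumors the Pearson correlation of log2 CPM lay between 0.767 and 0.971, with a median of 0.875, for the 15 pairs among Pdcd1, Havcr2, Tigit, Cd274, Cd86 and Vsir, a group that was put together after the values were seen. The pair at 0.971 was Tigit and Cd274. Over all 45 pairs of the 10 genes the median was 0.618. The points share the tumor's depth and its cell content, and A3688 was the lowest tumor for each gene of that group. Over the 8 tumors without A3688, a choice made after seeing the data, 14 of the 15 correlations were lower, with a range from 0.516 to 0.972 and a median of 0.727, while that of Tigit and Cd274 was 0.972. Cd80 had correlations from -0.379 to 0.618 with the other genes, with a median of 0.0876. Without A3688 they ran from -0.232 to 0.859, with a median of 0.410. A3688 was the lowest tumor for 7 genes, these 6 and Ctla4, and A3673 for Lag3, Cd80 and, tied with A3688 at 0 counts, Pdcd1lg2. The highest tumor was C3698 for 5 genes, C3519 for 3 and B3638 for Tigit and Pdcd1lg2.

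**Figure D4:**
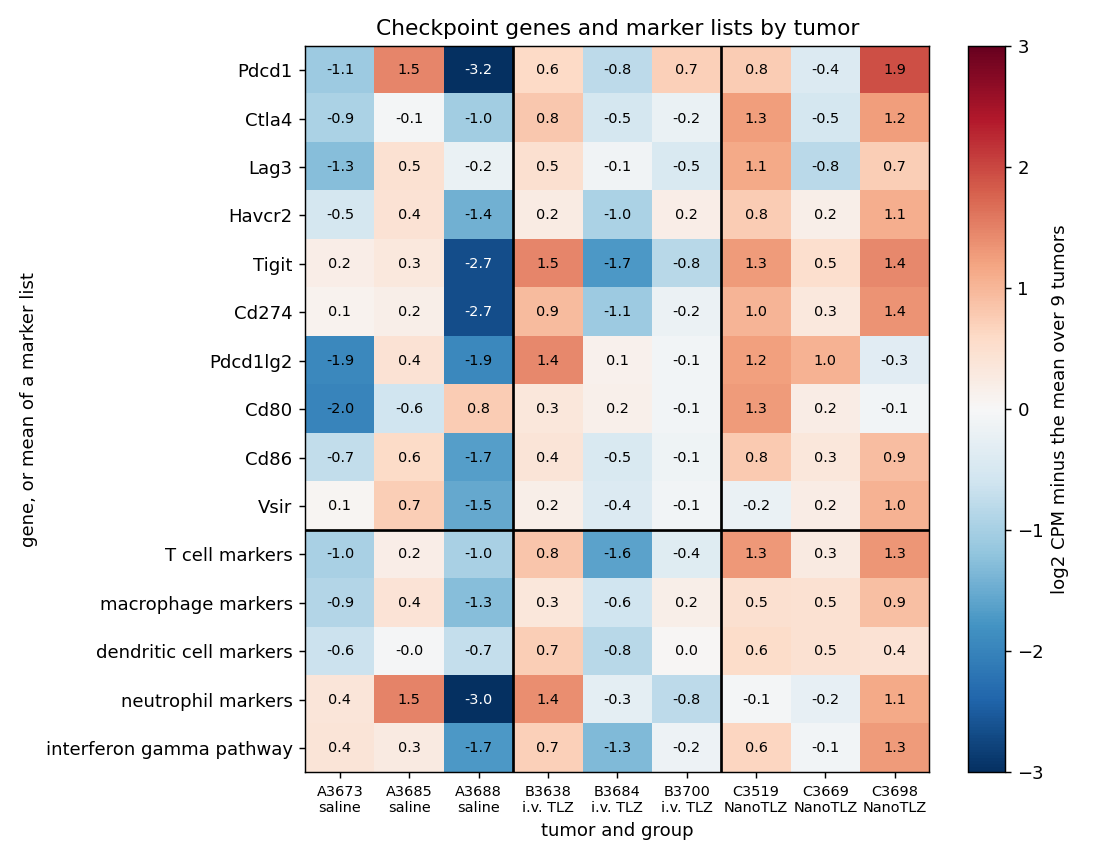
Log2 CPM of the 10 checkpoint genes, and mean log2 CPM of 5 lists of marker or pathway genes, minus the row's mean over the 9 tumors. Columns are tumors in their groups, red is above and blue below the mean. A3688 has the lowest value of the 9 tumors for 7 genes, while for Cd80 it lies above the mean.

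The genes most like each checkpoint gene were taken as the 3 with the highest Pearson correlation over the 9 tumors among all tested genes, a choice that picks extremes and is given without a test. For Cd86 they were Rasal3 (0.996), H2-Ob (0.988) and Fermt3 (0.985), and for Havcr2 Laptm5 (0.991), Tnfsf13b (0.986) and Gpr65 (0.982). Laptm5 and Fermt3 are known as leukocyte genes, and Tnfsf13b encodes the B cell factor BAFF. For Cd274 they were Cd247 (0.985), the zeta chain of the T cell receptor complex, Wfdc2 (0.981) and Gbp8 (0.981). For Tigit they were Tgtp2 (0.976), Gbp3 (0.972) and Cd274 (0.971), where Tgtp2 and Gbp3 are GTPases induced by interferon. For Pdcd1 they were Wfdc21 (0.968), Pik3cd (0.967) and Fam78a (0.963), for Vsir Klrb1b (0.963), Bcl3 (0.959) and Pou2f2 (0.959), and for Pdcd1lg2 Clec7a (0.969), the receptor dectin-1 of myeloid cells, Relt (0.966) and Pik3r6 (0.952). For Cd80 they were Tmem14c (0.949), Adora2b (0.946) and Chil1 (0.916), and for Lag3 Tmem199 (0.951), D130007C19Rik (0.922) and Dnase1l3 (0.894).

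The CD28 and CTLA-4 ligands parted most in the saline group. The ratio of Cd86 to Cd80 per length was 23.0 in A3673, 17.5 in A3685 and 1.30 in A3688. In the i.v. TLZ tumors it was 7.46, 4.69 and 7.08, and in the NanoTLZ tumors 4.99, 7.90 and 14.8. The ratio ran over a wider range in the saline tumors than in the treated ones, and the lowest Cd80 count behind it was 4, in A3673.

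**Figure D5:**
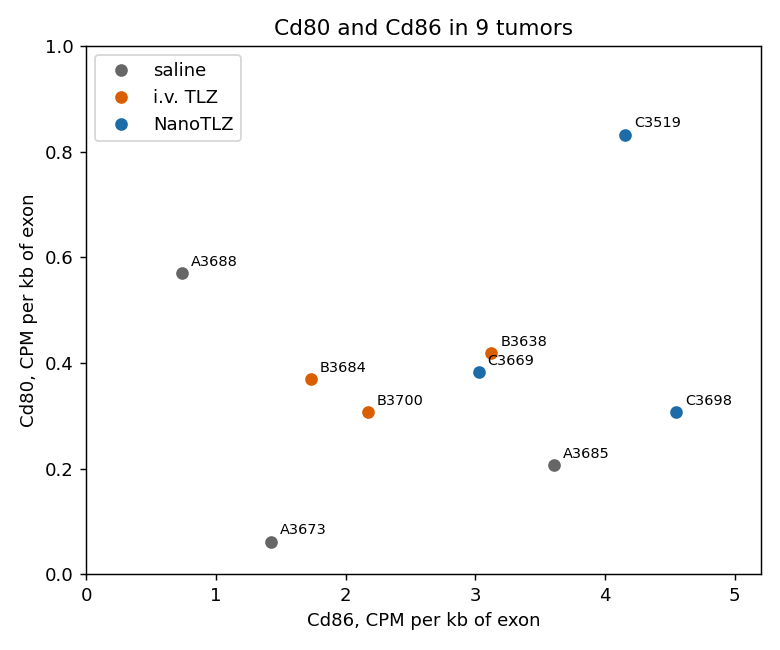
Cd80 against Cd86 in CPM per kilobase of exon, 1 labelled point per tumor, coloured by group. A3688 has the lowest Cd86 of the 9 tumors, at 0.739, with the second highest Cd80, at 0.570, and A3673 has the lowest Cd80, at 0.0618.

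Of the 34 other checkpoint and costimulation genes on a list, 28 were tested and 0 were called in any comparison. For NanoTLZ against saline 20 of the 28 had a value above 0, with a median log2 fold change of 0.45, 3 had an unadjusted p under 0.05 with a higher level and 1 with a lower level. For i.v. TLZ 16 of the 28 were above 0, with a median of 0.08, and 4 higher and 2 lower genes had an unadjusted p under 0.05. Over all tested genes 43.9% were above 0 for NanoTLZ and 47.6% for i.v. TLZ, with medians of -0.09 and -0.03. An unadjusted edgeR p under 0.05, in either direction, was found for 8.99% and 10.4%, and 0.00632% and 0% were called. The 4 most abundant of the 28 were Lgals3, Cd47, Cd200 and Hmgb1. Lgals3, the gene of galectin-3, had 6695, 6923 and 3329 counts after saline, 22344, 26286 and 10437 after i.v. TLZ and 9579, 12852 and 13382 after NanoTLZ. Both treated groups lay above the saline group, by log2 fold changes of 1.83 (SE 0.46, edgeR adjusted p = 0.417) and 1.10 (SE 0.45, edgeR adjusted p = 0.552). Of all tested genes, 5.99% were higher without overlap for i.v. TLZ and 7.82% for NanoTLZ. Cd47, the signal against phagocytosis, had 0.05 and 0.24, Cd200 -0.20 and 0.11, and Hmgb1 -0.77 and -0.90.

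Partners of the receptors were picked from that list with their values known. Lgals9, the gene of galectin-9, had a log2 fold change of 1.18 for NanoTLZ against saline (edgeR adjusted p = 0.552) and 0.73 for i.v. TLZ (edgeR adjusted p = 0.616). Ceacam1, another reported TIM-3 ligand and an epithelial adhesion protein, was lower without overlap in both treated groups, with log2 fold changes of -1.81 for i.v. TLZ (edgeR adjusted p = 0.378) and -1.51 for NanoTLZ (edgeR adjusted p = 0.552). Of all 15821 tested genes, 822 were lower without overlap for i.v. TLZ against saline and 1286 for NanoTLZ against saline. Pvr, the ligand of TIGIT, had 0.48 and 0.39, with overlapping groups. Cd226, the activating receptor that shares PVR with TIGIT, had 0 to 7 counts per tumor and was too sparse for a ratio.

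The 14 genes of the interferon gamma pathway, which acts on Cd274, gave 13 tested genes and 0 calls. For NanoTLZ against saline 11 of the 13 were above 0, with a median log2 fold change of 0.87 and 1 unadjusted p under 0.05, and for i.v. TLZ 9 of the 13, with a median of 0.26 and none. Over all tested genes 43.9% were above 0 for NanoTLZ and 47.6% for i.v. TLZ, with medians of -0.09 and -0.03. An unadjusted edgeR p under 0.05 was found for 8.99% and 10.4%, and 0.00632% and 0% were called. The 4 most abundant of the 13 were Jak1, Gbp2, Ifngr2 and Ifngr1. For NanoTLZ and i.v. TLZ against saline, Jak1 had -0.23 and -0.11, Gbp2 0.87 and 0.33, Ifngr2 0.30 and -0.06 and Ifngr1 0.13 and 0.26. Irf1, a transcription factor induced by interferon and picked outside these 4, had 0.64 for NanoTLZ and 0.43 for i.v. TLZ against saline. Jak2, the neighbour of Cd274, had -0.03 and -0.41 where Cd274 had 1.32 and 0.49, and the difference between the 2 genes was not tested. Of the 5 regulatory T cell markers 3 were above 0 and 2 below for NanoTLZ against saline, with a median log2 fold change of 0.39, and likewise for i.v. TLZ, with a median of 0.56. Il2ra had 0.39 for NanoTLZ and 1.17 for i.v. TLZ against saline, Ikzf4 0.81 and 0.56, Ikzf2 -0.83 and -1.05 and Tnfrsf18 -1.05 and -0.49, with Ikzf2 lower without overlap after i.v. TLZ. Of all 15821 tested genes, 822 were lower without overlap in that comparison. Among the 5 markers Foxp3, picked with its values known, had 4, 3 and 2 counts after saline, 15, 5 and 5 after i.v. TLZ and 17, 10 and 15 after NanoTLZ. Its groups did not overlap for NanoTLZ against saline, with a log2 fold change of 2.18 (SE 0.67, edgeR adjusted p = 0.552). The same held for i.v. TLZ against saline, with 1.45 (SE 0.68, edgeR adjusted p = 0.494). Over all tested genes 7.82% and 5.99% were higher without overlap in these comparisons, and 0 of the 5 markers were called.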

How the data were processed

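The authors deposited raw counts of reads per gene and tumor, without normalization. The submitters' processing notes name TopHat2, DESeq2 and mm10. The counting program, annotation and strand setting are not given in the sources used here. Each of the 9 columns matched 1 tumor label, and no columns were identical. Symbols and exon lengths came from GENCODE M21, in which 34490 of 35275 identifiers were found.

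Genes were kept by filterByExpr (minimum count 10, minimum total 15), scaled by TMM and fitted in 1 model to 9 tumors with glmQLFit and glmQLFTest in edgeR 4.0.16 under R 4.3.3. P-values were adjusted over 15821 genes by the Benjamini-Hochberg method, and calls were made at 0.05. The biological coefficient of variation was 49.8%. Log2 CPM used a prior count of 2. Floors of 3 counts cover counting error only. The study gives 3 mice per group, so each tumor was 1 replicate. Alternatives were DESeq2 1.42.0, limma-voom (limma 3.58.1), edgeR on 2 groups, other scalings and filters, robust dispersion, and each tumor left out; the scripts were tested on simulated data. Named were all 10 genes, the 4 most abundant genes of a list, and the 3 genes most like each checkpoint gene; others are marked. The genes and lists were chosen with earlier results of these data known. Figures used Python 3.11.15 and matplotlib 3.10.9.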

Additional observations from a re-analysis of the deposited data

How the results depend on the processing

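No checkpoint gene was called in any comparison under any alternative run, and depth limits Ctla4 and Pdcd1lg2 most. Apart from leaving out tumors, the count with an unadjusted p under 0.05 moved from 0 only with limma-voom, to 1 for i.v. TLZ against saline, 4 for NanoTLZ against saline and 1 for the mean of both treated groups, and limma-voom also turned Vsir for i.v. TLZ from -0.12 to 0.14 on the log2 scale. With 1 tumor left out that count ran from 0 to 2 for i.v. TLZ, 0 to 5 for NanoTLZ, 0 to 1 for NanoTLZ against i.v. TLZ and 0 to 5 for the mean. The highest counts came without A3685, except for NanoTLZ against i.v. TLZ, where it was without B3638. Log2 fold changes that changed sign with a tumor left out ran, for i.v. TLZ against saline, from -0.39 to 2.31 for Pdcd1, -0.13 to 0.68 for Lag3, -0.10 to 0.85 for Havcr2, -1.11 to 1.04 for Tigit, -0.21 to 0.85 for Cd274, -0.072 to 1.43 for Cd80, -0.10 to 1.11 for Cd86 and -0.53 to 0.43 for Vsir. For NanoTLZ against i.v. TLZ they ran from -0.19 to 0.94 for Pdcd1lg2, -0.076 to 0.75 for Cd80 and -0.0096 to 1.19 for Pdcd1, and for the mean of both treated groups from -0.00042 to 2.69 for Pdcd1 and -0.25 to 0.70 for Vsir. In an alternative chosen after seeing the data, library sizes without scaling gave 1 gene without overlap for NanoTLZ against i.v. TLZ, where TMM gave 0. The cause of these changes was not tested. No paired analysis was possible because the labels do not pair tumors of different groups.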
